A study of Mus musculus with 6 samples.

Results

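The genes described here are the STEAP metalloreductases Steap1, Steap2, Steap3 and Steap4 and 6 genes that take up, store or export iron, namely Tfrc, Slc11a2, Fth1, Ftl1, Slc40a1 and Cp. These 10 genes, of 11835 in the deposited data, were listed by name, and they were chosen by a reading of the same siCNN3 and siNC values that are given below, in which Steap4 was already known to be among the genes with the largest decrease. The differences between the groups are therefore a description of these genes and no independent evidence about them. The samples were C2C12 cells, myoblasts of an established mouse line that fuse into myotubes when serum is withdrawn, and the cells were differentiated in medium with horse serum. In the siNC group, 3 samples had been transfected with NC siRNA, a negative control, and in the siCNN3 group 3 samples had been transfected with CNN3 siRNA against calponin 3, an actin-binding protein. All 6 are labelled as myotubes of this 1 line, and the sources used here do not say which of the CNN3 siRNAs was used. The study's methods give a harvest time for differentiation analyses in general, and its use for the sequenced samples is not stated. Nothing in the labels says that the samples were separate cultures, so the errors below measure only the spread between these samples.

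Cells take up most of their iron as ferric iron bound to transferrin. The transferrin receptor (Tfrc) carries it into endosomes, a STEAP protein reduces it to ferrous iron there, and the divalent metal transporter Slc11a2 moves it to the cytosol. STEAP proteins are membrane reductases that pass electrons from NADPH through heme to iron and copper, and Steap1 differs from the others because it lacks the NADPH-binding domain. Spare iron is stored in ferritin, a shell of heavy (Fth1) and light (Ftl1) chains, or leaves the cell through ferroportin (Slc40a1), after which the ferroxidase ceruloplasmin (Cp) oxidizes it. The balance is set after transcription. When iron is scarce, the iron regulatory proteins bind a hairpin in the mRNA, the iron-responsive element, which blocks translation when it lies in the 5' UTR and protects the mRNA from decay when it lies in the 3' UTR.

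The hairpins are shown as a sequence feature that separates the 10 genes. The genes and the pattern were both chosen as known parts of iron handling, so a match among these genes is no independent result. UTRs of the listed transcripts, in the GENCODE annotation of GRCm38, were searched for a bulged C, 5 stem bases, the loop CAGTGN and 5 bases that pair with the first stem, G-T pairs allowed. The search found 7 such cores in 4 of the 10 genes. Each is given in 30 bases from 5' to 3' with the loop in capitals, and the coordinates are those of its 17-base core.
Fth1, 5' UTR, chr19:9982738-9982754, plus strand: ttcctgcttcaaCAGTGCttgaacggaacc
Ftl1, 5' UTR, chr7:45459785-45459801, minus strand: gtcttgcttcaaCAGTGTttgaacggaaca
Slc40a1, 5' UTR, chr1:45925471-45925487, minus strand: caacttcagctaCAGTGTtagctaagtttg
Tfrc, 3' UTR, core 1, chr16:32631225-32631241, plus strand: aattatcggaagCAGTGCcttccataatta
Tfrc, 3' UTR, core 2, chr16:32631604-32631620, plus strand: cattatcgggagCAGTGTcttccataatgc
Tfrc, 3' UTR, core 3, chr16:32631669-32631685, plus strand: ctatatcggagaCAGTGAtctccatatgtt
Tfrc, 3' UTR, core 4, chr16:32631716-32631732, plus strand: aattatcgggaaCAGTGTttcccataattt
The ferritin genes and the exporter gene Slc40a1 thus carried their core in the 5' UTR and the uptake receptor carried 4 in the 3' UTR. Slc11a2 had no complete core. With 1 of the 5 stem pairs allowed to be unpaired, a core was found in the 3' UTR of its transcript Slc11a2-205. That looser pattern was found in 687 genes, compared with 112 for the complete core.
Slc11a2, 3' UTR, chr15:100395159-100395175, minus strand: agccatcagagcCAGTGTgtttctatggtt
The STEAP genes and Cp had no core with every base of the stem paired. Among all listed transcripts, 0.147% of the 21749 with a 5' UTR and 0.604% of the 20688 with a 3' UTR held a complete core there. A match in these letters is not a measured binding site.

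The deposited values are FPKM (fragment counts scaled by transcript length and library size), which were summed over the transcripts of a gene. They are per length, so levels can be compared between genes. Read numbers are unknown, so the errors hold no separate estimate of counting error. Of the 11835 genes, 11593 averaged 0.5 FPKM or more and were tested, among them all 10 described here. Differences are log2 fold changes of FPKM + 1, siCNN3 over siNC, with the standard error (SE) from limma, and a gene with a Benjamini-Hochberg adjusted p below 0.05 over all tested genes is called higher or lower. Adding 1 makes the fold changes of weakly expressed genes too small. By this rule 200 genes were called higher (1.73% of those tested) and 39 lower (0.336%), and with quantile normalization these counts were 199 and 93. Together, 2.06% were called in either direction. At an unadjusted p below 0.05, 9.94% of all tested genes were higher and 6.14% lower, and these shares are the background for the unadjusted counts given below. The 3 siCNN3 values lay above the 3 siNC values in 13.8% of the tested genes and below them in 9.35%. An exact permutation test of 3 samples against 3 cannot give a two-sided p below 0.1. Cnn3, the targeted gene, was at 62.8, 61.4 and 62.8 FPKM in siNC replicates 1 to 3 and at 19.04, 39.2 and 25.6 FPKM in siCNN3 replicates 1 to 3. All siCNN3 values of Cnn3 were below those of siNC, although its log2 fold change of -1.19 (SE 0.242) was not called (adjusted p = 0.0669, limma).

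Of the 10 genes, Steap4 and Cp were called lower, 0 were called higher, and 8 were not called by limma. The counts at an unadjusted p below 0.05 were also 2 lower and 0 higher. Steap4 and Cp were the genes whose groups did not overlap, and since the comparison served to choose the 10 genes, nothing is read from these counts beside the 0.336% called lower, the 6.14% lower before adjustment and the 9.35% without overlap among all tested genes. The median log2 fold change of the 10 genes was -0.02, compared with 0.03 for all tested genes.

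**Figure D1:**
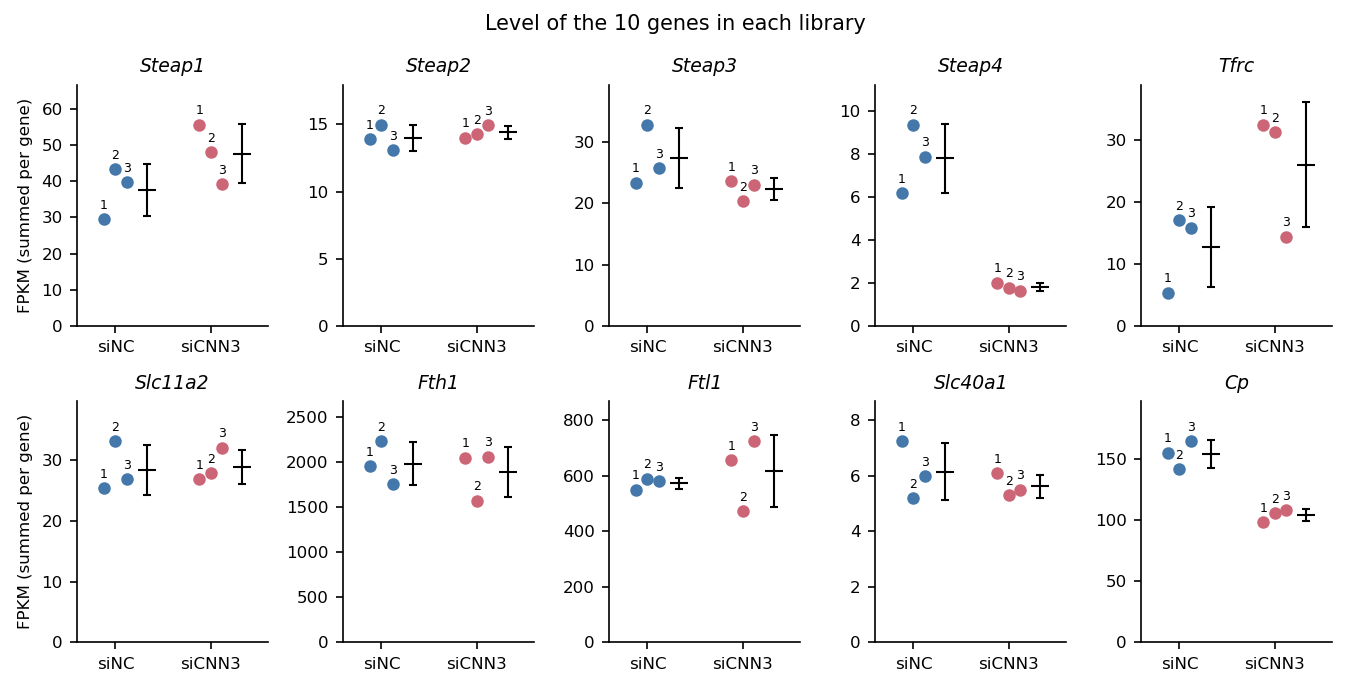
FPKM of the 10 genes (vertical axes, linear from 0, a scale for each gene) in the siNC (blue) and siCNN3 (red) libraries, numbered by replicate, with the mean and SD of each group in black (n = 3). Steap4 and Cp are the panels in which the groups do not overlap, and Tfrc has the widest spread within both groups relative to its mean.

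The ferritin genes were by far the most abundant. Over the 6 libraries, Fth1 had a mean of 1940 FPKM, the 3rd highest of all tested genes, and Ftl1 had a mean of 595.1 FPKM. Cp followed with a mean of 128.8 FPKM and Steap1 with 42.6 FPKM, and the values of these 4 genes did not overlap in any library. Below them, Slc11a2 (25.4 to 33.1 FPKM) and Steap3 (20.4 to 32.8 FPKM) overlapped with each other, and the highest Slc11a2 values overlapped with the lowest of Steap1. Tfrc ranged from 5.35 to 32.4 FPKM and overlapped with Steap1, Steap2, Steap3, Steap4, Slc11a2 and Slc40a1. Steap2 (13.07 to 14.97 FPKM) stood above Slc40a1 (5.20 to 7.25 FPKM) in every library. Steap4 was the lowest on average, with a mean of 4.80 FPKM, and its place changed between the groups. It was above Slc40a1 in siNC replicates 2 and 3 and below it in siNC replicate 1 and in each siCNN3 library.

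Steap4, a ferric and cupric reductase known from fat tissue and from inflammation, had the largest difference of the 10 genes. Its values were 6.17, 9.35 and 7.86 FPKM in siNC replicates 1 to 3. In siCNN3 replicates 1 to 3 it was at 2.01, 1.78 and 1.64 FPKM. Each siCNN3 library was below each siNC library, and the siCNN3 mean of 1.81 ± 0.186 FPKM (SD, n = 3) was 23.2% of the siNC mean of 7.79 ± 1.59 FPKM (SD, n = 3). The log2 fold change was -1.63 with an SE of 0.179 (adjusted p = 0.0108, limma over all tested genes). It lay between -1.77 and -1.51 when any 1 library was left out. The call was lost without siNC replicate 3 (adjusted p = 0.0718), siCNN3 replicate 1 (adjusted p = 0.0525) or siCNN3 replicate 2 (adjusted p = 0.0647, limma), and with the replicate number as a block (adjusted p = 0.0556, limma). Steap4 is at chr5:7960457-7982213 on the plus strand, and has 1 listed transcript of 5 exons. The nearest protein-coding gene after it, Sri (chr5:8046078-8069379), which encodes the calcium-binding protein sorcin, averaged 17.4 FPKM (siNC) and 14.4 FPKM (siCNN3), with a log2 fold change of -0.25 that was not called. The nearest protein-coding gene before it, Zfp804b, was not analysed here.

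Because Steap4 had the largest difference, its promoter is shown, from 250 to 51 bases before the start site in RefSeq (GRCm38.p6). Capitals mark matches, on either strand, to an E-box of the kind bound by myogenic factors (CAGCTG), to a STAT site (TTCNNNGAA) and to a C/EBP core (TTGCNNAA), in that order from 5' to 3'.
Steap4 promoter, chr5:7960222-7960421, plus strand: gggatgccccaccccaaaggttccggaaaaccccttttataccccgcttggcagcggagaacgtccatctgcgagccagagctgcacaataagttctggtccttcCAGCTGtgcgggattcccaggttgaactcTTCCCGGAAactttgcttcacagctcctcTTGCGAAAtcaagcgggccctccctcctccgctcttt
The matches begin 145, 116 and 87 bases before the start, and they do not overlap. Of 32851 RefSeq promoters of 300 bases, 16.3% held CAGCTG, 8.3% held TTCNNNGAA and 10.8% held TTGCNNAA, and 0.164% held all 3. Of the 9 other genes described here, 7 matched the RefSeq table, and 0 of these had a promoter with all 3. Steap4 and the motifs were chosen with earlier results of these data known. Nothing is therefore read from these shares or from the 7 other genes. These matches are letters in a sequence, and factor binding was not measured.

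The other STEAP genes were not called. Steap1 was at 29.4, 43.3 and 39.7 FPKM (siNC) and 55.6, 48.1 and 39.2 FPKM (siCNN3), replicates 1 to 3 in order. The groups overlapped through siCNN3 replicate 3, and the log2 fold change was 0.34 with an SE of 0.191. This value was 0.18 without siNC replicate 1 and 0.47 without siCNN3 replicate 3. Steap2 was at 13.9, 14.97 and 13.07 FPKM (siNC) and 13.99, 14.2 and 14.95 FPKM (siCNN3), and all values lay close together (log2 fold change 0.04, SE 0.119). Steap3, the reductase of the transferrin cycle in red cell precursors, was at 23.4, 32.8 and 25.8 FPKM (siNC) and 23.7, 20.4 and 23.02 FPKM (siCNN3), with a log2 fold change of -0.27 (SE 0.156). Its groups overlapped through siNC replicate 1. Steap1 (chr5:5736317-5749326) and Steap2 (chr5:5664829-5694578) lie on the minus strand of the chromosome that also holds Steap4, and Steap3 lies apart at chr1:120190757-120272705.

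Summed over the family, STEAP mRNA differed by less than its spread, while Steap4 made up less of it in siCNN3. The sum of their FPKM was 86.6 ± 13.8 (siNC) and 86.2 ± 8.36 (siCNN3; SD, n = 3). The share of Steap4 in that sum was 8.46%, 9.31% and 9.10% in siNC replicates 1 to 3 and between 2.08% and 2.11% in the siCNN3 libraries. These shares use the values that chose Steap4 and were not tested.

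The genes whose pattern over the 6 libraries was most like that of Steap4 were Tnni2, Tnnt3, Tnnt1, Myh3 and Enpp2. Likeness was the root mean square difference of log2(FPKM + 1) values centred on their mean over the 6 libraries, and it was 0.15, 0.17, 0.17, 0.19 and 0.19 in that order. Tnni2, Tnnt3 and Tnnt1 encode troponin subunits, Myh3 encodes the embryonic myosin heavy chain and Enpp2 encodes a secreted lysophospholipase. Tnnt3, for example, was at 7.43, 10.3 and 10.4 FPKM (siNC) and 2.42, 2.43 and 3.11 FPKM (siCNN3). Since likeness rests largely on the difference between the same groups, these genes share the direction of Steap4 by construction.

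**Figure D2:**
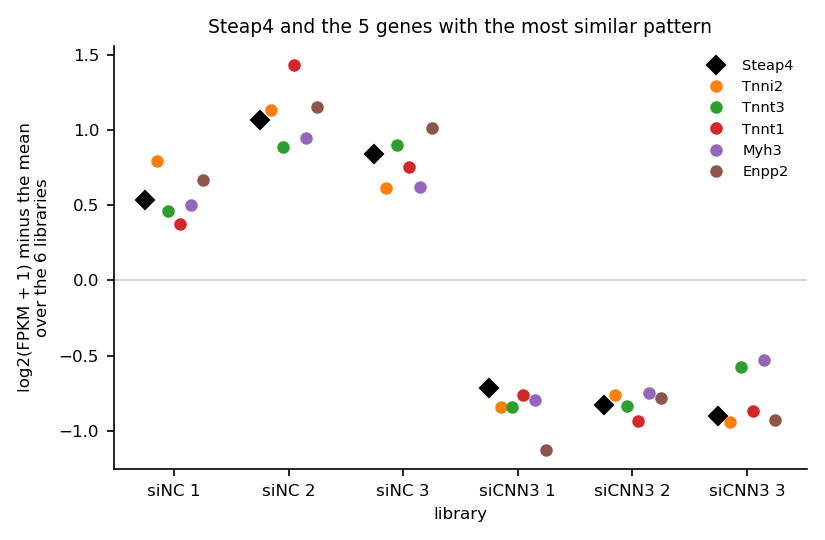
log2(FPKM + 1) minus its mean over the 6 libraries (vertical axis) for Steap4 (black diamonds) and the 5 genes most like it (coloured circles) in each library (horizontal axis). All 6 genes are above 0 in the siNC libraries and below 0 in the siCNN3 libraries.

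Markers of cell types moved with the groups as well, and their part in the values of Steap4 and Cp was not tested. Of 11 muscle markers, 10 were tested, 2 were called lower (the skeletal actin gene Acta1 and Myh3) and 9 had a log2 fold change below 0, beside 0.336% called lower and 5335 of 11593 below 0 among all tested genes. At an unadjusted p below 0.05, 6 were lower and 1 higher. The higher one was Myf5, a regulator of myoblasts, which averaged 4.68 FPKM (siNC) and 9.93 FPKM (siCNN3) and was not called. All siCNN3 values lay below those of siNC for 7 of the 10 and above them for 0, beside 9.35% and 13.8% of all tested genes. Among the 7 was Mymk, with a log2 fold change of -1.03 (SE 0.297) that was not called. The summed level of the muscle markers was between 162.1 and 188.4 FPKM in siNC and between 122.3 and 129.7 FPKM in siCNN3. Most of it was the desmin gene Des, at 113.0 to 125.1 FPKM (siNC) and 84.3 to 103.2 FPKM (siCNN3). Of 4 adipocyte markers, Fabp4, a fatty acid binding protein, was analysed. It was at 8.88, 8.09 and 10.9 FPKM (siNC) and 2.17, 2.97 and 3.13 FPKM (siCNN3), with a log2 fold change of -1.46 (SE 0.178, adjusted p = 0.0152, limma). Adipoq, Plin1 and Lep were not analysed here. Of the erythroid markers, 4 globin genes were analysed, which summed to between 224.5 and 653.2 FPKM in siNC and to between 49.95 and 72.8 FPKM in siCNN3. Of these, Hbb-bs and Hbb-bt were called lower, beside 0.336% of all tested genes, and at an unadjusted p below 0.05 all 4 were lower. Of 9 markers of other blood cells, Lyz2, Cd68 and Cd14 were analysed and 0 were called by limma, also at an unadjusted p below 0.05. Their sum was between 20.1 and 27.1 FPKM in siNC and between 16.3 and 19.2 FPKM in siCNN3. Of 4 liver markers, Apoa1 was analysed and was not called. It was between 0.673 and 9.16 FPKM in siNC and between 0.513 and 0.656 FPKM in siCNN3. All 6 samples are labelled as myotubes of 1 line, so these lists do not count cells of other types. In bulk RNA, fewer cells in a given state and less RNA per cell cannot be told apart.

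For iron uptake, the transferrin receptor gene Tfrc (chr16:32608920-32632794) varied more within both groups, relative to its mean, than any other of the 10 genes. Its values were 5.35, 17.0 and 15.8 FPKM in siNC replicates 1 to 3. In siCNN3 replicates 1 to 3 it was at 32.4, 31.2 and 14.3 FPKM. The high values of siCNN3 replicates 1 and 2 stood above every siNC value, while siCNN3 replicate 3 lay between siNC replicates 1 and 3. The siCNN3 mean of 25.98 ± 10.1 FPKM was 204.3% of the siNC mean of 12.7 ± 6.40 FPKM (SD, n = 3), and the log2 fold change was 1.03 with an SE of 0.475. This difference was not called, and it was 0.55 without siNC replicate 1 and 1.40 without siCNN3 replicate 3. Slc11a2 (chr15:100387898-100425072), which encodes the divalent metal transporter, was at 25.4, 33.1 and 26.9 FPKM (siNC) and 26.8, 27.8 and 32.1 FPKM (siCNN3). Its groups overlapped, and the log2 fold change was 0.03 with an SE of 0.145, or -0.08 with quantile normalization.

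For iron storage, neither ferritin chain was called. Fth1 (chr19:9980598-9985098) was at 1958, 2236 and 1760 FPKM (siNC) and 2053, 1573 and 2062 FPKM (siCNN3), with a log2 fold change of -0.07 (SE 0.143) that was 0.23 with quantile normalization. Ftl1 (chr7:45457944-45459884) was at 550.3, 589.6 and 579.3 FPKM (siNC) and 655.5, 471.6 and 724.2 FPKM (siCNN3), with a log2 fold change of 0.08 (SE 0.163). siCNN3 replicate 2 was the lowest library for both chains. The ratio of Fth1 to Ftl1 was 3.46 ± 0.386 in siNC and 3.11 ± 0.246 in siCNN3 (SD, n = 3), and its values overlapped between the groups. Ferritin genes have near-identical processed copies that can share reads with them. The copy Ftl1-ps1 was listed at 24.1 to 32.3 FPKM in siNC and at 29.9 to 50.8 FPKM in siCNN3.

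For iron export, the transporter and the oxidase differed in their values. Slc40a1, which encodes ferroportin (chr1:45908068-45926523), was at 7.25, 5.20 and 5.99 FPKM (siNC) and 6.09, 5.30 and 5.51 FPKM (siCNN3), with a log2 fold change of -0.10 (SE 0.159). Its groups overlapped and it was not called. Cp, which encodes the copper enzyme ceruloplasmin (chr3:19957054-20009145), was at 155.1, 141.6 and 164.3 FPKM in siNC. In siCNN3 replicates 1 to 3 it was at 98.2, 105.7 and 107.9 FPKM, so that no siCNN3 library reached the lowest siNC library. The siCNN3 mean of 103.9 ± 5.06 FPKM was 67.6% of the siNC mean of 153.7 ± 11.4 FPKM (SD, n = 3), and the log2 fold change was -0.56 with an SE of 0.103. This difference was barely past the threshold (adjusted p = 0.0499, limma), and it was no longer called without any 1 of siNC replicates 1 to 3 and siCNN3 replicates 1 and 2 (adjusted p between 0.0796 and 0.218). It was called without siCNN3 replicate 3 (adjusted p = 0.0407, limma) and missed the threshold with a pseudocount of 0.1, no filter, median-of-ratios scaling, the most abundant transcript only, no trend or the replicate number as a block (adjusted p between 0.0511 and 0.17, limma).

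Several of the 10 genes have more than 1 listed transcript, and the division of a gene's FPKM among them differed between libraries. For Steap2 and the longest Cp transcript it did not follow the groups. The transcript Steap2-209, with a length of 10089 nucleotides, held 62.5%, 62.8% and 60.6% of the Steap2 total in siNC replicate 1 and siCNN3 replicates 2 and 3. It held 20.6%, 13.04% and 12.4% in siNC replicates 2 and 3 and siCNN3 replicate 1. The same 3 libraries were high for the longest Cp transcript, Cp-204, at 34.01, 20.1 and 28.4 FPKM, where siNC replicates 2 and 3 and siCNN3 replicate 1 had 9.20, 9.76 and 5.24 FPKM. The sums over transcripts, which are used here, did not show this division. The main Cp transcript, Cp-202, was at 96.2, 91.8 and 109.1 FPKM (siNC) and 67.2, 67.01 and 60.2 FPKM (siCNN3). Steap3-201 had 8.70 FPKM in siNC replicate 2, 5.68 FPKM in siNC replicate 3 and was listed at 0 in the 4 other libraries, and with the most abundant Steap3 transcript alone the log2 fold change was 0.14 in place of -0.27. The transcripts of Slc11a2 differ in their 3' ends, and Slc11a2-205, with the incomplete hairpin, held between 61.2% and 70.2% of the gene's FPKM in all 6 libraries. For Tfrc, the transcript Tfrc-201, which carries the 4 hairpin cores, held 67.7%, 90.15% and 74.0% in siNC replicates 1 to 3 and 95.7%, 90.16% and 92.1% in siCNN3 replicates 1 to 3. All siCNN3 shares were thus above those of siNC, although siNC replicate 2 and siCNN3 replicate 2 were nearly equal, and they were not tested. The share of the minor transcript Ftl1-204 was at most 0.232% of Ftl1 and was lower in every siCNN3 library than in every siNC library.

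**Figure D3:**
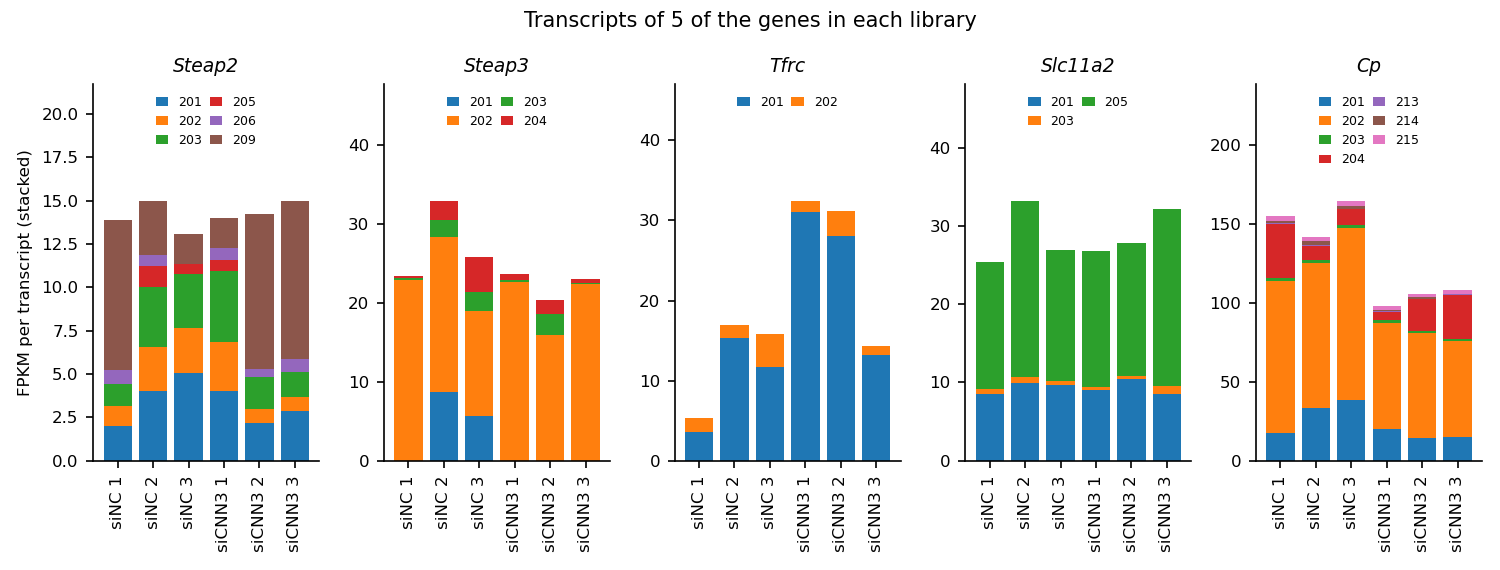
FPKM of each listed transcript (vertical axis, stacked, linear from 0) of Steap2, Steap3, Tfrc, Slc11a2 and Cp in the 3 siNC and 3 siCNN3 libraries (horizontal axis), with colours for transcripts by their annotation number. Steap2-209 makes up most of the bar in siNC replicate 1 and siCNN3 replicates 2 and 3, and the total of Cp is lower in the siCNN3 libraries.

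Other genes of iron handling were taken from 4 lists of 80 genes, of which 66 were tested. Of these, 1 was called higher (Hspa9) and 0 lower by limma, beside 1.73% and 0.336% of all tested genes, and the counts at an unadjusted p below 0.05 were 6 higher and 3 lower, beside 9.94% and 6.14%. Their median log2 fold change was 0.09, compared with 0.03 for all tested genes.
Hspa9, the mitochondrial chaperone that helps to hand over new iron-sulfur clusters, was at 139.9, 149.5 and 149.1 FPKM (siNC) and 340.6, 316.4 and 270.0 FPKM (siCNN3). All siCNN3 values were above those of siNC, with a log2 fold change of 1.07 (SE 0.114, adjusted p = 0.0099, limma). Leaving out siNC replicate 3 ended the call, as did leaving out replicate 1 or 2 of siCNN3 (adjusted p between 0.0523 and 0.0667, limma). In the same list of 28 genes for iron-sulfur cluster assembly, all of which were tested, 23 had a log2 fold change above 0, compared with 6258 of the 11593 tested genes, and the median was 0.20. At an unadjusted p below 0.05, 2 of the 28 were higher and 0 lower, beside 9.94% and 6.14%. The next largest values were 0.79 for Mms19 (SE 0.350), which delivers clusters to nuclear enzymes, and 0.64 for Nfu1 (SE 0.140), a mitochondrial cluster carrier. Nfu1 was at 33.3, 32.5 and 35.2 FPKM (siNC) and 63.0, 50.8 and 46.2 FPKM (siCNN3), and it was called when siCNN3 replicate 3 was left out (adjusted p = 0.0389, limma) but not with all libraries (adjusted p = 0.0806).

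Among the regulators of iron and of ferritin turnover, 0 of 9 were called by limma, beside 2.06% of all tested genes. At an unadjusted p below 0.05, 1 was higher and 0 lower, beside 9.94% and 6.14%. The iron regulatory proteins that bind the hairpins were at 5.81 to 10.2 FPKM (Aco1) and 17.4 to 21.6 FPKM (Ireb2) over the 6 libraries. The log2 fold changes were 0.18 (SE 0.216) for Aco1, 0.01 (SE 0.127) for Ireb2, 0.13 (SE 0.338) for Fbxl5, the ligase subunit that marks Ireb2 protein for degradation, and 0.26 (SE 0.0992) for the antioxidant regulator Nfe2l2. For other transport of iron and heme, 0 of 18 tested genes were called by limma, beside 2.06% of all tested genes. The counts at an unadjusted p below 0.05 were 2 higher and 1 lower. The largest values were 1.05 for the heme oxygenase gene Hmox1 (SE 0.448), 0.54 for Slc25a37 (SE 0.285) and 0.43 for Slc25a28 (SE 0.129), both mitochondrial iron importers. Hmox1 was at 43.2, 17.6 and 19.8 FPKM (siNC) and 39.6, 38.4 and 94.9 FPKM (siCNN3). In each group the library with the most Hmox1, siNC replicate 1 and siCNN3 replicate 3, was the library with the least Tfrc. Across all tested genes, the deviations of these libraries from their group means also correlated, at 0.442, so this is not particular to Hmox1 and Tfrc.
The next list was that for signaling through hepcidin, the liver hormone that removes ferroportin. In it, 0 of 11 tested genes were called by limma, beside 2.06% of all tested genes. Of these 11, 1 was higher and 2 lower at an unadjusted p below 0.05. The largest values were -0.64 for the hemojuvelin gene Hjv (SE 0.203), 0.54 for Erfe (SE 0.219), a muscle and erythroid hormone gene, and -0.40 for the receptor gene Bmpr2 (SE 0.161). Of 13 tested genes for inflammatory signals that act on iron genes, 1 was called higher and 0 lower by limma, beside 1.73% and 0.336% of all tested genes, with 1 higher and 1 lower at an unadjusted p below 0.05. Il6, the cytokine that induces hepcidin, was at 13.2, 7.59 and 5.66 FPKM (siNC) and 30.6, 30.7 and 26.7 FPKM (siCNN3), with a log2 fold change of 1.70 (SE 0.271, adjusted p = 0.0333, limma). The call of Il6 was lost without siNC replicate 2 or 3 or siCNN3 replicate 1 or 2 (adjusted p between 0.0898 and 0.140), and with quantile normalization (adjusted p = 0.0559) or median-of-ratios scaling (adjusted p = 0.0514, limma), as it was with the replicate number as a block (adjusted p = 0.0557). Its receptor gene Il6ra had a log2 fold change of -0.59 (SE 0.145), and Cebpa, a transcription factor of fat and liver, had one of -0.42 (SE 0.193), and neither was called.

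**Figure D4:**
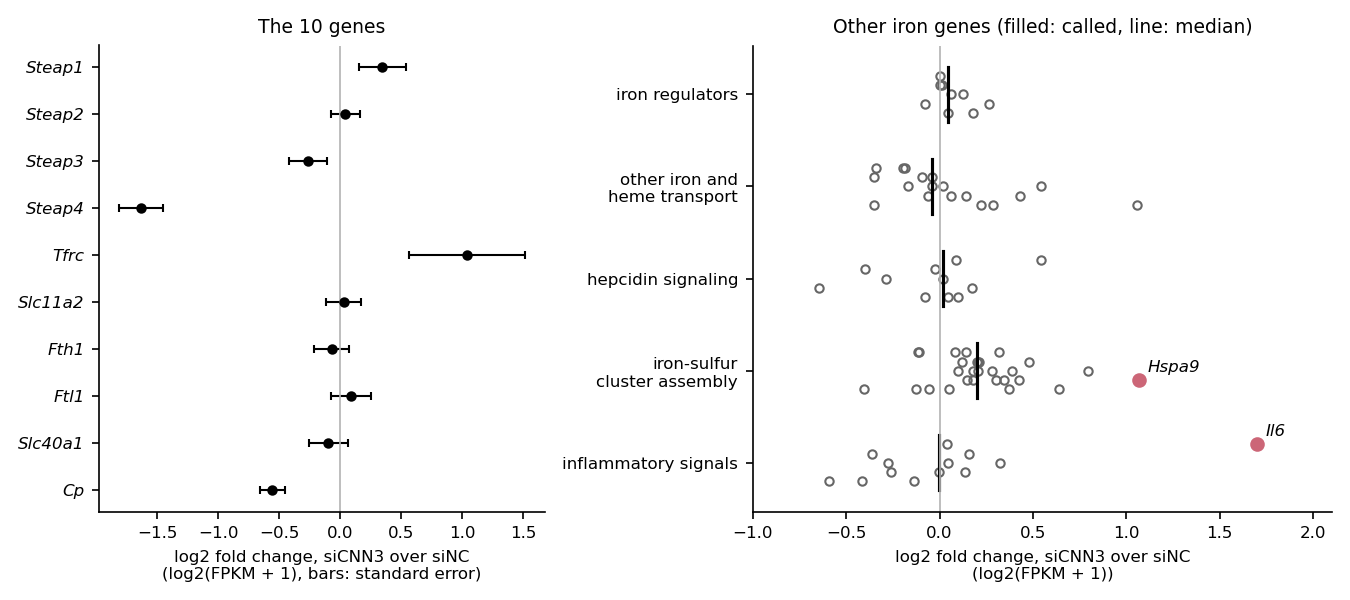
Left, difference in mean log2(FPKM + 1), siCNN3 minus siNC (horizontal axis), of the 10 genes with the SE as bars. Right, the same quantity for the tested genes of 4 iron lists and of the list of inflammatory signals, with called genes filled and the median of each list as a line. Hspa9 at 1.07 and Il6 at 1.70 are the called genes of these lists.

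A complete hairpin core was found in 112 of the 11571 tested genes with a UTR, or 0.968% of them. Of the 112 genes, 0 were called by limma in either direction, beside the 1.73% and 0.336% of all tested genes, and the counts at an unadjusted p below 0.05 were 7 higher and 9 lower, beside 9.94% and 6.14%. Their median log2 fold change was -0.03. The 24 genes with a core in the 5' UTR, which include Fth1, Ftl1 and Slc40a1, had a median of 0.03, and the 88 with a core in the 3' UTR, which include Tfrc, had a median of -0.03. The proteins of these genes and the translation of their mRNAs were not analysed here, and the FPKM do not show how the hairpins in the 5' UTR acted.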

How the data were processed

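RNA of 3 siNC and 3 siCNN3 samples of C2C12 cells was sequenced. The authors deposited FPKM for 24023 Ensembl transcripts. The submitters' processing notes list Bowtie 0.12.2 and the builds mm8 and mm10, without a role. The program that estimated the FPKM, its annotation and the read numbers are not given in the sources used here, so the depth is unknown. An FPKM of exactly 0 can be a failed estimate.

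Without their version, 23949 identifiers matched GENCODE M21 (GRCm38), and 74, with 0.159% to 0.220% of a library's FPKM, were left out. FPKM were summed per gene symbol. Those averaging 0.5 FPKM or more were fitted together as log2(FPKM + 1) by limma 3.58.1 (R 4.3.3, mean-variance trend, Benjamini-Hochberg adjustment, threshold 0.05), a step tested on simulated data. The 10 genes, the lists and the motifs were chosen with earlier results of these data known. The lists were written from general knowledge, with older symbols also matched. From them, the 3 tested genes with the largest absolute change and all called genes were to be named, not all of which are printed for the marker lists. Cores and motifs were searched in Python 3.11.15 with pandas 2.3.3 and numpy 2.4.6, and figures were drawn with matplotlib 3.10.9. RefSeq promoters matched 8 of the 10 genes, not Slc40a1 and Slc11a2. Alternatives were a pseudocount of 0.1, no filter or one at 5 FPKM, quantile or median-of-ratios scaling, a block for the replicate number, limma without a trend, a Student's test of each gene, the most abundant transcript only, other hairpin definitions, and each library left out.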

Additional observations from a re-analysis of the deposited data

How the results depend on the processing

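Steap4 kept its sign, with log2 fold changes from -2.03 (pseudocount 0.1) to -1.51, and Cp kept its sign, from -0.68 to -0.51, in every fit in which they were tested. Their adjusted p ranged from 0.0078 to 0.1 and from 0.0337 to 0.218 (limma and a Student's test). Steap4 was not tested with a filter at 5 FPKM. Of the 10 genes, 1 was called with a pseudocount of 0.1, no filter, median-of-ratios scaling, a filter at 5 FPKM, no trend or the most abundant transcript only, and 0 with the replicate block or a Student's test. The gene called was Cp with the filter at 5 FPKM and Steap4 in the others, and the Student's test gave an adjusted p of 0.1 for Steap4 and 0.124 for Cp. With 1 library left out, 0 to 2 were called. Genes called higher numbered 62 with the replicate block, 0 by a Student's test, 100 with the most abundant transcript and 16 to 444 with 1 library left out. Genes called lower numbered 63 with median-of-ratios scaling, 93 with quantile normalization, 6 with the replicate block, 0 by a Student's test, 22 with the most abundant transcript and 4 to 161 with 1 library left out. The median log2 fold change of all tested genes moved between -0.05 and 0.06. The iron lists had 0 genes called higher with the replicate block or by a Student's test, and 0 to 2 with 1 library left out. With 1 of the 5 stem pairs allowed to be unpaired, 10 of 684 genes with a hairpin core were called (9 higher and 1 lower), beside 2.06% of all tested genes. The cause of these changes was not tested.

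Among genes that were not called, the log2 fold change turned to -0.0094 (median-of-ratios scaling) and -0.0796 (quantile normalization) for Slc11a2, to -0.0415 for Steap2 and 0.23 for Fth1 (quantile normalization), and to 0.14 for Steap3 (most abundant transcript). With 1 library left out it ranged from -0.0481 to 0.14 for Slc11a2, from -0.20 to 0.0086 for Slc40a1, from -0.15 to 0.0589 for Fth1, from -0.0030 to 0.0884 for Steap2 and from -0.0428 to 0.27 for Ftl1.

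The replicate numbers were not shown to pair the samples. The deviations of siNC and siCNN3 libraries with the same number from their group means correlated across genes at -0.278, 0.314 and -0.0247, and siNC replicate 1 correlated best with siCNN3 replicate 3 (0.442). With the replicate block, Steap4 and Hspa9 had an adjusted p of 0.0556 each, Il6 one of 0.0557 and Cp one of 0.17 from limma, and these 4 calls were lost.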
